A study of Mus musculus with 14 samples.

Results

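The genes described here encode the proteins of the cytosolic ribosome. They were taken from the expression table by symbol, as the rows named Rpl or Rps with a number, together with Rpsa, Rplp0, Rplp1 and Rplp2, leaving out pseudogene symbols and the Rps6k kinases. The rule used names only and no measured value, and it found 95 of the 46904 genes in the table. Of these, 77 encode the standard proteins of the ribosome (46 of the large and 31 of the small subunit) and are called core genes below. Another 16 carry the symbol of a paralog or retrogene copy (such as Rps27l or Rpl22l1). The remaining 2 were taken in by symbol alone, namely Rps19bp1, which encodes a protein that binds Rps19, and Rps23rg1, a retrogene related to Rps23. All 95 passed the filter on low values and were tested, but 12 of them, 11 copies and Rps23rg1, had a mean under 2 RPKM (reads scaled by gene length and library size).

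RNA from whole brain hemispheres was sequenced 48 h after middle cerebral artery occlusion (MCAO), a filament model of stroke in which the artery was blocked for 20 min and then reperfused. The mice were 12 weeks old males on a C57BL/6J background, either wild type (Cort+/+) or carrying a deletion of the neuropeptide gene cortistatin in all tissues (Cort-/-). The ischemic hemisphere (MCAO) was set against the contralateral hemisphere (CL), which had no occlusion but came from an operated animal. Of the 14 libraries, 6 came from Cort+/+ mice, with 3 per hemisphere (the MCAO replicates carry the numbers 2 to 4), and 8 from Cort-/- mice, of which 3 are CL and 5 MCAO. The study's methods describe the replicates as independent and biological. The labels give a replicate number and do not say whether a CL and an MCAO library share an animal.

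A ribosome joins one large and one small subunit, and nearly every core gene supplies a single protein to it. Cells keep the mRNAs of these genes at high levels. Many of the mRNAs start with a run of C and T bases, the 5′ terminal oligopyrimidine (TOP) motif, through which the kinase complex mTORC1 controls how strongly they are translated, without a need for a change in mRNA level. In brain, neurons carry ribosomes into dendrites and axons, and in any tissue cells that grow or divide make new ribosomes at a high rate. The question that the 4 groups pose for these genes is whether they shift together with ischemia, with the loss of cortistatin, or with both.

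The start regions of 8 genes are shown first to set starts with a long pyrimidine run beside starts with a short one. A TOP motif lies at the very start of the mRNA, so a run near an annotated start does not by itself mark a TOP mRNA. A short run there does not exclude one either, as the annotated start may differ from the one used. Each is the 30 bases from 20 before to 10 after the transcript start in RefSeq (promoter table of build GRCm38.p6), read on the strand of the gene, and capitals mark the longest run of C and T within 10 bases of that start. Rpl7a, Rps18 and Rps6 are core genes with a long run, Rplp0, Rpl12 and Rpl18 had the largest differences between hemispheres among the large subunit genes, Rps27l had the largest among the members above 10 RPKM, and Rps19bp1 is the binding protein.
Rpl7a: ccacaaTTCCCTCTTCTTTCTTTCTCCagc
Rps18: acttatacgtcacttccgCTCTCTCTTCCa
Rps6: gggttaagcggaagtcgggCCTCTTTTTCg
Rpl18: acgagtgcgtctcgcaggccgCTCTTTCCC
Rpl12: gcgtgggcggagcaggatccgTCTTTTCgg
Rplp0: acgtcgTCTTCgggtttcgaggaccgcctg
Rps27l: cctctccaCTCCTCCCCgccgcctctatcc
Rps19bp1: accgccagggcggaagtagCTCgccgcgtg

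The same letters occur once in GRCm39, the build of the expression table, at chr2:26800799-26800828 for Rpl7a, chr17:34174630-34174659 (minus strand) for Rps18, chr4:86775595-86775624 (minus strand) for Rps6 and chr7:45367475-45367504 for Rpl18. The windows of Rpl12, Rplp0, Rps27l and Rps19bp1 lie at chr2:32851704-32851733, chr5:115697506-115697535, chr9:66853348-66853377 and chr15:80148498-80148527 (minus strand). The runs were 21 bases long in Rpl7a, 11 in Rps18, 10 in Rps6 and Rpl18 (in Rpl18 the last base lies past the window, which shows 9), 9 in Rps27l, 7 in Rpl12, 5 in Rplp0 and 3 in Rps19bp1, so the 2 core genes of largest difference were not those with the longest runs. The runs of Rps27l and Rplp0 begin at −12 and −14 from the RefSeq start used and end before it, so they lie outside that transcript. Both windows lie inside the span that GENCODE gives for the gene. The table held a promoter for 57 of the 77 core genes. A run of at least 8 pyrimidines within 10 bases of the annotated start was present in 27 of them (47.4%), against 16.1% of the 27025 genes in the table. The motif CCGGAAG, a core sequence bound by ETS family transcription factors, was searched on both strands from 250 bases before to 50 after the start, and was present in 24 core genes (42.1%) against 9.93% of all genes. Its reverse strand begins with a run of pyrimidines, so that both features can share letters.

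Reads on genes, recovered from the RPKM values, ranged from 25993810 to 43039019 per library. Cort had 64, 133 and 139 reads in the Cort+/+ CL libraries, 81 to 108 in the MCAO libraries of that genotype, and 0 to 4 in every Cort-/- library, as the labels state. Markers of neurons, astrocytes, oligodendrocytes and microglia were all present, as brain tissue requires, while 10 of 12 markers of neutrophils and lymphocytes averaged under 1 RPKM. Limma was fitted to log2(RPKM + 0.1) over the 46102 genes above 0 in at least 2 libraries, and a gene was called at a Benjamini-Hochberg adjusted p under 0.05 over all of them. A log2 difference is on that scale throughout. RPKM is per length, with one length per gene. Levels of different genes can be set side by side only as far as that length is that of the expressed transcript.

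The 95 genes supplied 2.48% to 3.75% of each library's TPM (RPKM rescaled to the same total in every library). Core genes held 98.9% of this and the copies 1.02%. Rplp1, a protein of the stalk that recruits elongation factors to the ribosome, had the highest mean (530 RPKM), followed by Rps29 (355 RPKM), Rps15 (327 RPKM), Rpl3 (303 RPKM) and Rpl19 (274 RPKM), and these 5 made up 16.2% of the summed RPKM of the members. The lowest core gene was Rps15a at 22.9 RPKM, and 49 core genes averaged at least 100 RPKM. In RPKM the core genes therefore spread over a wide range although nearly all of their proteins occur once in each ribosome. The low end goes with long lengths: Rps15a, Rps20 and Rpl18 had 5395, 3706 and 3413 bases, beside a core median of 977. Rps15a held 2961 to 6025 reads a library, near the 2833 to 6159 of Rpl11 (833 bases, 140 RPKM). How much of the spread comes from the lengths was not tested. The ratio of the mean large subunit to the mean small subunit level was 0.958 to 1.00 in the 14 libraries, with no separation of the groups.

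Ribosomal protein genes held a higher mean share of the RNA of the ischemic hemisphere in both genotypes. The share of TPM was 3.01%, 2.50% and 2.48% in the Cort+/+ CL libraries (mean 2.66% ± 0.299, SD, n = 3) and 3.23%, 3.47% and 2.86% in the Cort+/+ MCAO libraries (mean 3.19% ± 0.305, SD, n = 3). In Cort-/- mice it was 2.72%, 2.93% and 2.70% in CL (mean 2.79% ± 0.124, SD, n = 3) and 3.75%, 3.34%, 3.02%, 3.67% and 3.27% in MCAO libraries (mean 3.41% ± 0.3, SD, n = 5). In Cort-/- mice every MCAO library lay above every CL library. In Cort+/+ mice CL replicate 1, the highest of its group, lay above MCAO replicate 4, the lowest of its group. As this is a share of bulk tissue RNA, fewer cells of a type and less RNA per cell cannot be told apart.

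**Figure D1:**
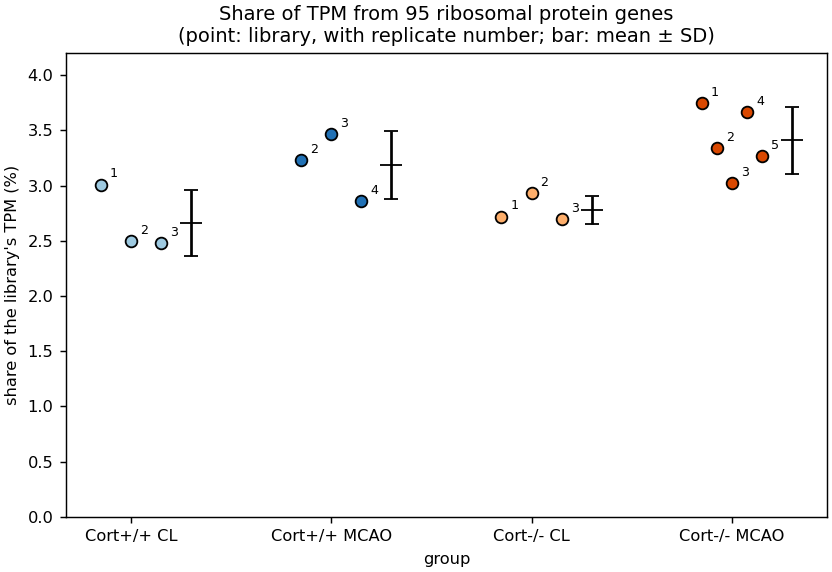
Share of each library's TPM (%, vertical axis from 0) held by the 95 ribosomal protein genes in the 4 groups, with a point per library numbered by replicate and the mean ± SD beside it (n = 3, 3, 3 and 5). The MCAO means of 3.19% and 3.41% stand above the CL means of 2.66% and 2.79%, and the Cort+/+ groups overlap through CL replicate 1 at 3.01% and MCAO replicate 4 at 2.86%.

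All 77 core genes had a higher fitted mean in MCAO than in CL hemispheres, in each genotype. Their median log2 difference was 0.23 in Cort+/+ mice (17.7% higher, range 0.09 to 0.40) and 0.27 in Cort-/- mice (21% higher, range 0.12 to 0.51). Over all genes tested the median was 0.00 in both, and over the 6327 other genes averaging 10 RPKM or more it was −0.03 and −0.05. The medians were 0.21 and 0.27 for the large subunit and 0.25 and 0.28 for the small subunit. Among the parts of the ribosome described below, the highest medians were 0.31 and 0.36 in the stalk. The lowest were 0.18 in Cort+/+ mice, for Rpl5 and Rpl11, and 0.22 in Cort-/- mice, near the peptidyl transferase centre. The direction of the 77 core genes is not 77 independent observations, since they share libraries and moved together in them.

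Taken gene by gene, no member was called between hemispheres in Cort+/+ mice (limma, 0 of 95, and 0 with limma voom on the recovered reads), where 0.0108% of all genes tested were called. At an unadjusted p under 0.05, 55 of the 95 were higher and 1, Rps23rg1, was lower, beside 4.88% of all genes higher (5.69% of those of at least 10 RPKM). In Cort-/- mice 4 members rose, Rplp0, Rpl23, Rpl23a and Rps27l, beside 1.72% of all genes called. All 4 averaged at least 10 RPKM, a level at which 119 of 6410 genes were called higher and 117 lower. In the same mice 75 members were higher at an unadjusted p under 0.05, beside 6.66% of all genes (9.81% of those of at least 10 RPKM). Rpl6l was the only member lower there at that p (log2 difference −0.55, adjusted p = 0.246), at 7 to 22 reads a library. The count of 4 depended on single libraries: it was 29 when Cort-/- MCAO replicate 3 was left out, 0 when any one of Cort-/- CL replicates 1 to 3 or MCAO replicates 1, 4 and 5 was, and 1 or 2 when Cort-/- MCAO replicate 2, any Cort+/+ CL replicate or Cort+/+ MCAO replicates 2 or 3 were. In the same order 1180, 130 to 342 and 564 to 857 of all genes were called in these fits, beside 792 with every library. A fit to the recovered reads (limma voom) called 26 members among 1267 genes. A fit to the Cort-/- libraries alone called 0 members among 86 genes.

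A comparison added after seeing the data averaged the hemisphere difference over both genotypes, which uses all 14 libraries. In it 37 members rose, 36 core genes and Rps27l, and none fell, beside 3.43% of all genes called in either direction. All 37 averaged at least 10 RPKM, a level at which 267 of 6410 genes were called higher and 268 lower. At an unadjusted p under 0.05, 82 members were higher, beside 8.02% of all genes (11.6% of those of at least 10 RPKM). Leaving out Cort-/- MCAO replicate 3 gave 56 member calls, beside 1904 of all genes. There were 8 to 23, beside 929 to 1265 of all genes, on leaving out Cort-/- CL replicates 1 or 3, Cort-/- MCAO replicate 4, Cort+/+ CL replicates 2 or 3, or Cort+/+ MCAO replicates 2 or 3. Of the 36 core genes, 21 belong to the large and 15 to the small subunit.

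The differences of the core genes were close to each other in size. The SD of the log2 difference over the 77 genes was 0.0749 in Cort+/+ and 0.0695 in Cort-/- mice, which is under the median standard error of a single gene (0.0966 and 0.0864). In each genotype 64 of the 77 lay within 1 standard error of the core median. Over both genotypes the SD was 0.066 beside a median standard error of 0.0648, and 49 of the 77 lay that close. A standard error includes shifts between libraries that the core genes share, so these values do not show equal differences. Across core genes the differences in the genotypes, which rest on separate libraries, had a Pearson r of 0.67 and a Spearman rho of 0.63 (n = 77 genes, which are not independent). The Pearson r of a core gene's difference was −0.03 and 0.02 for log2 length and −0.04 and −0.08 for log2 mean RPKM. Core genes with and without a pyrimidine run had median differences of 0.23 and 0.26 in Cort+/+ mice and 0.28 each in Cort-/- mice. With and without CCGGAAG the medians were 0.24 each in Cort+/+ mice, and 0.29 and 0.28 in Cort-/- mice.

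**Figure D2:**
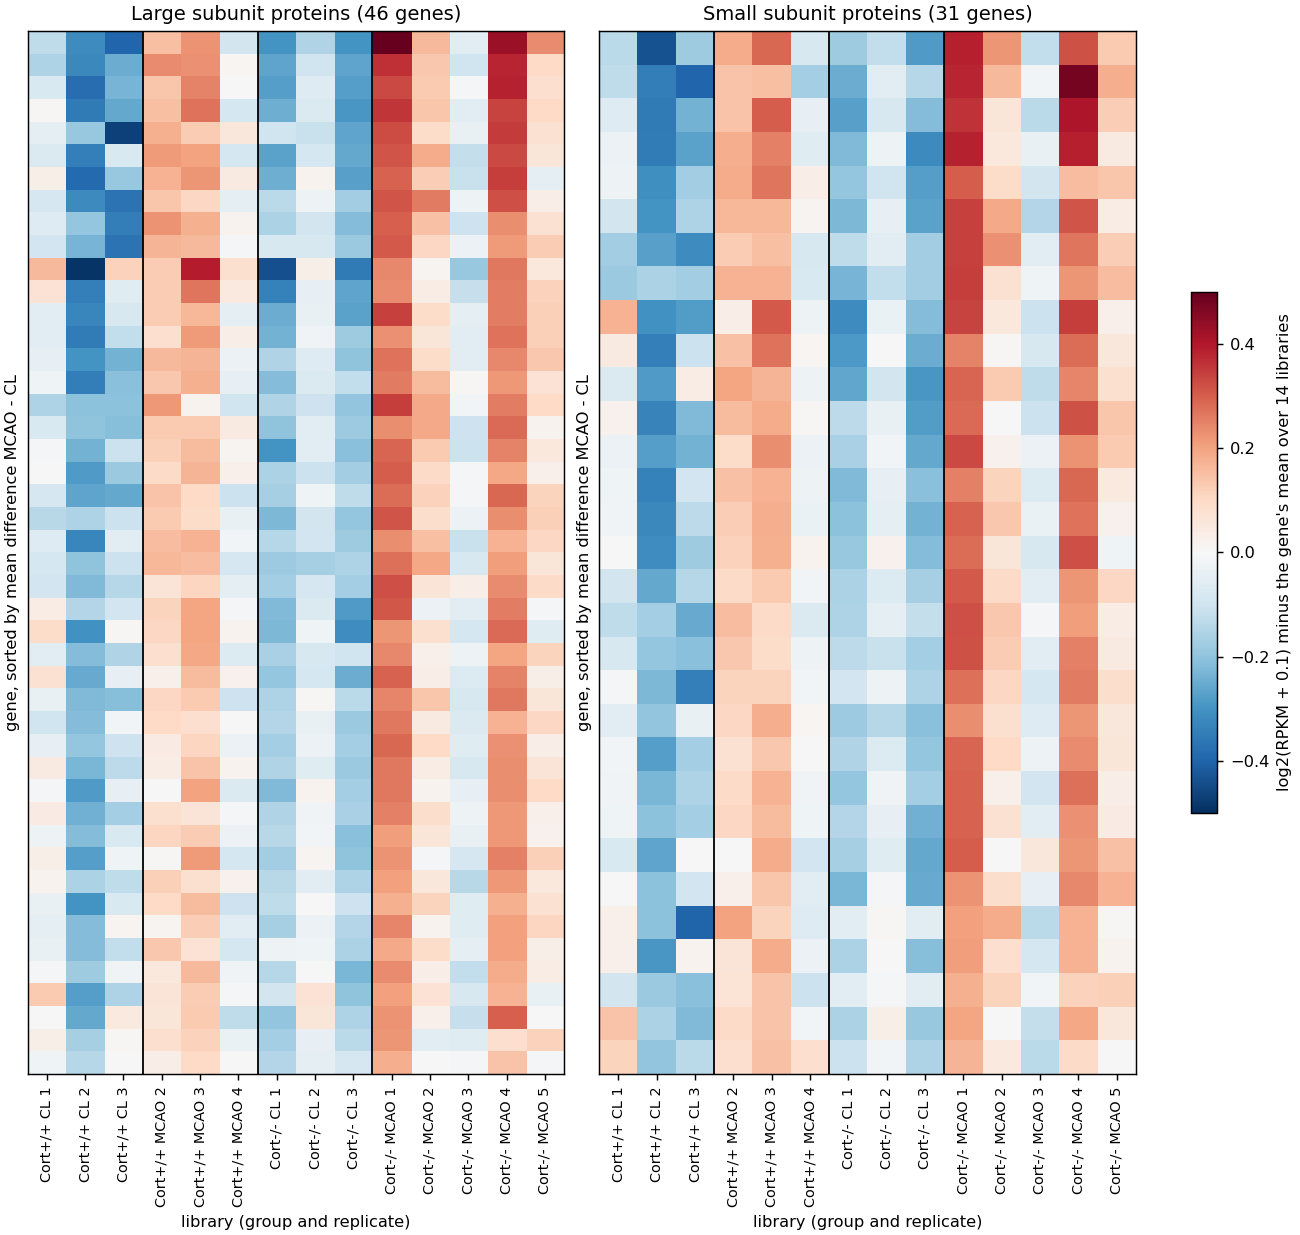
Deviation of each core gene from its own mean over the 14 libraries, as log2(RPKM + 0.1), for 46 large and 31 small subunit genes (rows, sorted by the difference between hemispheres) and the 14 libraries in 4 groups (columns). Red is above and blue below the gene's mean, and most columns have one colour from top to bottom, with Cort+/+ MCAO replicate 4 and Cort-/- MCAO replicate 3 near the mean of the genes (median deviations −0.02 and −0.06).

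Within the libraries the core genes moved nearly as a block. The median deviation of the 77 genes from their own means was −0.03, −0.26 and −0.15 in the Cort+/+ CL libraries and 0.12, 0.16 and −0.02 in MCAO replicates 2, 3 and 4. In Cort-/- mice it was −0.17, −0.04 and −0.20 in CL, and 0.28, 0.09, −0.06, 0.24 and 0.06 in MCAO replicates 1 to 5. All 77 genes lay above their own mean in Cort-/- MCAO replicates 1 and 4 and in Cort+/+ MCAO replicate 3, and none in Cort+/+ CL replicate 2 or in Cort-/- CL replicates 1 and 3. The Pearson r of a core gene with the median profile of the members over the 14 libraries had a median of 0.94, with 59 of 77 above 0.9. This profile contains the gene itself, and the libraries share their scaling. The lowest was Rps21 (r = 0.70), a small subunit protein, which was low in Cort+/+ CL replicate 3 (177 RPKM against 203 and 238 RPKM in the other CL libraries).

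In a given genotype, 37 of the 77 core genes were higher in every Cort+/+ MCAO library than in any Cort+/+ CL library, and 28 were so in Cort-/- mice. Over all 95 members the counts were 43 and 29, beside 5.73% and 4.85% of all genes tested (6.71% and 6.72% of those of at least 10 RPKM). Setting all 8 MCAO libraries against all 6 CL libraries, 13 members were higher without overlap, beside 1.72% of all genes (2.54% of those of at least 10 RPKM), among them Rpl10, Rpl12, Rpl18, Rpl23, Rpl23a, Rpl39, Rplp0, Rplp2, Rps9, Rpsa and Rps27l. Single libraries set the other overlaps. Without Cort+/+ MCAO replicate 4 the count of core genes in Cort+/+ mice was 69, and without CL replicate 1 it was 66. Without Cort-/- MCAO replicate 3 the count in Cort-/- mice was 67, and without CL replicate 2 it was 74.

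The stalk proteins, which contact the elongation factors that drive each step of translation, included the core gene of largest difference. Rplp0, the base of the stalk (GRCm39 chr5:115694515-115701793), stood at 123, 108 and 102 RPKM in Cort+/+ CL and 149, 157 and 126 RPKM in Cort+/+ MCAO libraries. In Cort-/- mice it stood at 109, 121 and 109 RPKM in CL and 193, 150, 129, 181 and 158 RPKM in MCAO libraries. The groups did not overlap in either genotype, and the lowest MCAO values were again those of Cort+/+ replicate 4 and Cort-/- replicate 3. The log2 difference was 0.38 in Cort+/+ (standard error 0.13, adjusted p = 0.434) and 0.51 in Cort-/- mice (standard error 0.12, adjusted p = 0.0479). Rpl12 joins the stalk to the ribosome (chr2:32851496-32855357) and was at 109, 97.0 and 102 against 143, 142 and 122 RPKM in Cort+/+ mice, and at 101, 113 and 101 against 156, 133, 113, 158 and 130 RPKM in Cort-/- mice, where its highest CL and lowest MCAO libraries lay close together. Over both genotypes Rplp0 rose by 0.44 (standard error 0.09, adjusted p = 0.0146), Rpl12 by 0.39 (standard error 0.08, adjusted p = 0.0123) and Rplp2 by 0.28 (adjusted p = 0.0212), while Rplp1 had a difference of 0.22 (adjusted p = 0.0521). Rplp1 and Rplp2 form the mobile arms of the stalk.

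Around the exit of the tunnel through which the new protein leaves the large subunit sit Rpl17, Rpl19, Rpl22, Rpl23a, Rpl26, Rpl31, Rpl35 and Rpl39. Of these 8, 4 rose over both genotypes (Rpl19, Rpl23a, Rpl26 and Rpl39), beside 36 of the 77 core genes and 3.43% of all genes. Whether any part of the ribosome differed from the rest of the core was not tested. Rpl23a, a docking site of the signal recognition particle, was at 190, 188 and 194 RPKM in Cort+/+ CL and 229, 223 and 204 RPKM in MCAO libraries, and at 179, 196 and 183 against 260, 222, 205, 246 and 227 RPKM in Cort-/- mice. Its libraries were tight enough in CL for all MCAO values to stand clear. The log2 difference was 0.19 in Cort+/+ (standard error 0.08, adjusted p = 0.545) and 0.31 in Cort-/- mice (standard error 0.07, adjusted p = 0.0405). Rpl31 had one of the smallest differences of the core (0.10 and 0.17), from 81.9 ± 5.88 to 87.5 ± 4.63 RPKM in Cort+/+ mice (SD, n = 3 each).

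Near the peptidyl transferase centre, where peptide bonds form, Rpl10 of 4 genes (Rpl3, Rpl4, Rpl8, Rpl10) rose over both genotypes (0.30, standard error 0.06, adjusted p = 0.0138), beside 36 of the 77 core genes. Rpl3 had a difference of 0.15 (adjusted p = 0.352), from 283 ± 41.8 to 315 ± 14.3 RPKM in Cort+/+ (SD, n = 3 each) and from 287 ± 27.8 (SD, n = 3) to 317 ± 27.5 RPKM (SD, n = 5) in Cort-/- mice. Rpl5 and Rpl11, which carry the 5S RNA into the large subunit and bind the p53 regulator Mdm2 when ribosome assembly fails, had differences of 0.16 (adjusted p = 0.205) and 0.26 (adjusted p = 0.0491). Rpl23 also binds Mdm2. It was at 120, 110 and 116 against 134, 138 and 124 RPKM in Cort+/+ mice and at 114, 121 and 114 against 160, 134, 131, 151 and 137 RPKM in Cort-/- mice. It rose in Cort-/- mice (log2 difference 0.29, standard error 0.07, adjusted p = 0.048), and the Cort+/+ difference was 0.19 (adjusted p = 0.515).

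In the small subunit, the 3 proteins at the mRNA entry site, Rps2, Rps3 and Rps9, all rose over both genotypes, beside 36 of the 77 core genes. Their differences were 0.36 (adjusted p = 0.0332), 0.27 (adjusted p = 0.0431) and 0.25 (adjusted p = 0.0272). Rps14, Rps26 and Rps28, near the site where the mRNA leaves, had differences of 0.28 (adjusted p = 0.18), 0.22 (adjusted p = 0.0813) and 0.22 (adjusted p = 0.0642). Rps6, the protein that S6 kinases phosphorylate downstream of mTORC1, was at 115, 104 and 116 against 128, 135 and 120 RPKM in Cort+/+ and at 105, 108 and 103 against 140, 126, 114, 139 and 124 RPKM in Cort-/- mice. Its groups stood apart in each genotype, although CL replicate 3 of Cort+/+ mice exceeded MCAO replicate 3 of Cort-/- mice. It rose over both genotypes by 0.24 (standard error 0.05, adjusted p = 0.0232). Rps12, Rps18, Rps19 and Rps2 had the largest differences of the subunit (0.38, 0.35, 0.35 and 0.36). Rpsa, also known as the laminin receptor precursor, rose by 0.30 (adjusted p = 0.014), and Rps15a was among the lowest (0.15, adjusted p = 0.206).

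Genes mutated in Diamond-Blackfan anaemia, an inherited failure of red cell production, give a view across both subunits. Of 9 such genes, 6 rose over both genotypes, beside 36 of the 77 core genes. Among the 6 were Rps19 (0.35, standard error 0.09, adjusted p just under the threshold), Rps7 (0.24, adjusted p = 0.0338) and Rpl35a (0.27, adjusted p = 0.0259), while Rps26, Rps24 and Rpl5 were not called. The 77 core genes lie on 19 chromosomes, 14 of them on chromosome 7, so the higher levels were spread over the genome. The 4 on the X chromosome (Rpl10, Rpl36a, Rpl39, Rps4x) had median differences of 0.32 and 0.28, and 2 of them, Rpl10 and Rpl39, rose over both genotypes.

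**Figure D3:**
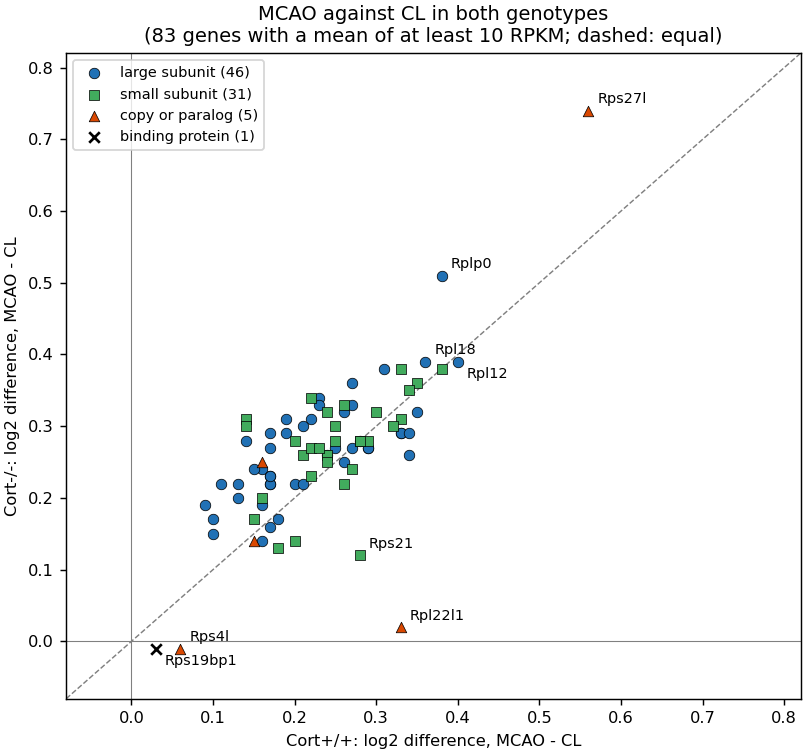
Log2 difference between MCAO and CL hemispheres in Cort+/+ (horizontal) and Cort-/- mice (vertical) for the 83 members that averaged 10 RPKM or more, by class, with a dashed line where both are equal. Core genes form one cloud around 0.23 and 0.27, with Rps27l above it (0.56 and 0.74), and Rpl22l1 (0.33 and 0.02), Rps4l (0.06 and −0.01) and Rps19bp1 (0.03 and −0.01) below it.

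The copies differed among themselves. Of the 16, Rps27l was the only one called in Cort-/- mice or over both genotypes. Rps27l is a paralog of Rps27 that p53 activates (chr9:66853340-66856808). It was at 9.41, 8.72 and 7.85 RPKM in Cort+/+ CL and 12.8, 14.2 and 11.5 RPKM in MCAO libraries, and at 8.90, 8.04 and 7.93 RPKM in Cort-/- CL and 17.3, 12.1, 10.5, 16.7 and 14 RPKM in MCAO libraries. All 8 MCAO libraries lay above all 6 CL libraries. The log2 difference was 0.56 in Cort+/+ (standard error 0.16, adjusted p = 0.318) and 0.74 in Cort-/- mice (standard error 0.14, adjusted p = 0.0231), and 0.65 over both (standard error 0.11, adjusted p = 0.00587). Its parent Rps27 had a difference of 0.16 over both genotypes (adjusted p = 0.29), so that Rps27l went from 4.5% ± 0.295 to 5.98% ± 0.323 of the Rps27 level in Cort+/+ mice (SD, n = 3 each) and from 4.4% ± 0.506 (SD, n = 3) to 6.57% ± 0.775 (SD, n = 5) in Cort-/- mice.

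Rpl22l1, a paralog that can take the place of Rpl22 in the ribosome and had the higher RPKM here, had its own pattern. It was at 51.1, 49.7 and 40.7 RPKM in Cort+/+ CL and 56.6, 61.1 and 59.0 RPKM in MCAO libraries, but at 55.7, 57.2 and 55.5 RPKM in Cort-/- CL and 60.5, 54.3, 54.9, 60.0 and 55.8 RPKM in MCAO libraries. The Cort+/+ CL libraries were the low ones, and the other 3 groups lay together. The log2 difference between hemispheres was 0.33 in Cort+/+ (standard error 0.08, unadjusted p = 0.000811, adjusted p = 0.212) and 0.02 in Cort-/- mice (standard error 0.07, adjusted p = 0.932). The interaction of genotype and hemisphere was −0.30 (standard error 0.10, unadjusted p = 0.00993, adjusted p = 1), so the difference between the genotypes did not pass the test over all genes. The parent Rpl22 had differences of 0.16 and 0.19. The ratio of Rpl22l1 to Rpl22 in RPKM was 151% ± 16.8 in Cort+/+ CL (SD, n = 3), 169% ± 10.2 in MCAO (SD, n = 3), 184% ± 4.15 in Cort-/- CL (SD, n = 3) and 163% ± 11.1 in MCAO (SD, n = 5). These ratios rest on lengths of 561 bases for Rpl22l1 and 2065 for Rpl22. In reads Rpl22 was the higher (1643 to 3439 against 814 to 1476 a library).

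Among the other copies above 10 RPKM, Rpl36al, which encodes nearly the same protein as Rpl36a, had differences of 0.16 and 0.25, and Rpl7l1, a relative of Rpl7, had 0.15 and 0.14. Rpl36al stood at 17.7% to 18.7% of the Rpl36a level in the 4 group means. Rps4l, a copy of Rps4x, was at 10.9, 9.99 and 8.72 against 10.2, 11.2 and 9.30 RPKM in Cort+/+ mice and at 9.94, 11.5 and 12.2 against 11.9, 11.3, 8.57, 12.2 and 12.0 RPKM in Cort-/- mice. Its groups overlapped in both genotypes. Rps19bp1 was at 12.0, 13.1 and 12.2 against 14.2, 12.1 and 11.9 RPKM in Cort+/+ and at 12.8, 10.7 and 13.9 against 12.6, 13.4, 11.2, 12.1 and 12.2 RPKM in Cort-/- mice, with 95% intervals of the log2 difference of −0.17 to 0.24 and −0.19 to 0.18. Shared reads limit the copies: those of at least 1 RPKM named as retrogenes, Rpl35rt, Rpl37rt and Rps27rt, held 9 to 61 reads a library, and reads from such copies and from their parents cannot be told apart with certainty. The 204 pseudogene rows of ribosomal protein genes held 0.0270% to 0.0400% of TPM.

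The copies under 1 RPKM carried too few reads for a firm value. Rps12l1 had reads in 4 of the 6 Cort+/+ libraries and in none of the 8 Cort-/- libraries, at no more than 4 reads in any library, and a count of 0 allows up to 3 reads. Rpl27rt had at most 2 reads. Rpl32l, Rpl39l, Rpl3l, Rpl6l, Rps3a2 and Rps3a3 had at most 24 reads a library, and Rps23rg1 at most 12. Their log2 differences between hemispheres within a genotype ranged from −0.55 to 0.88, and none was called.

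**Figure D4:**
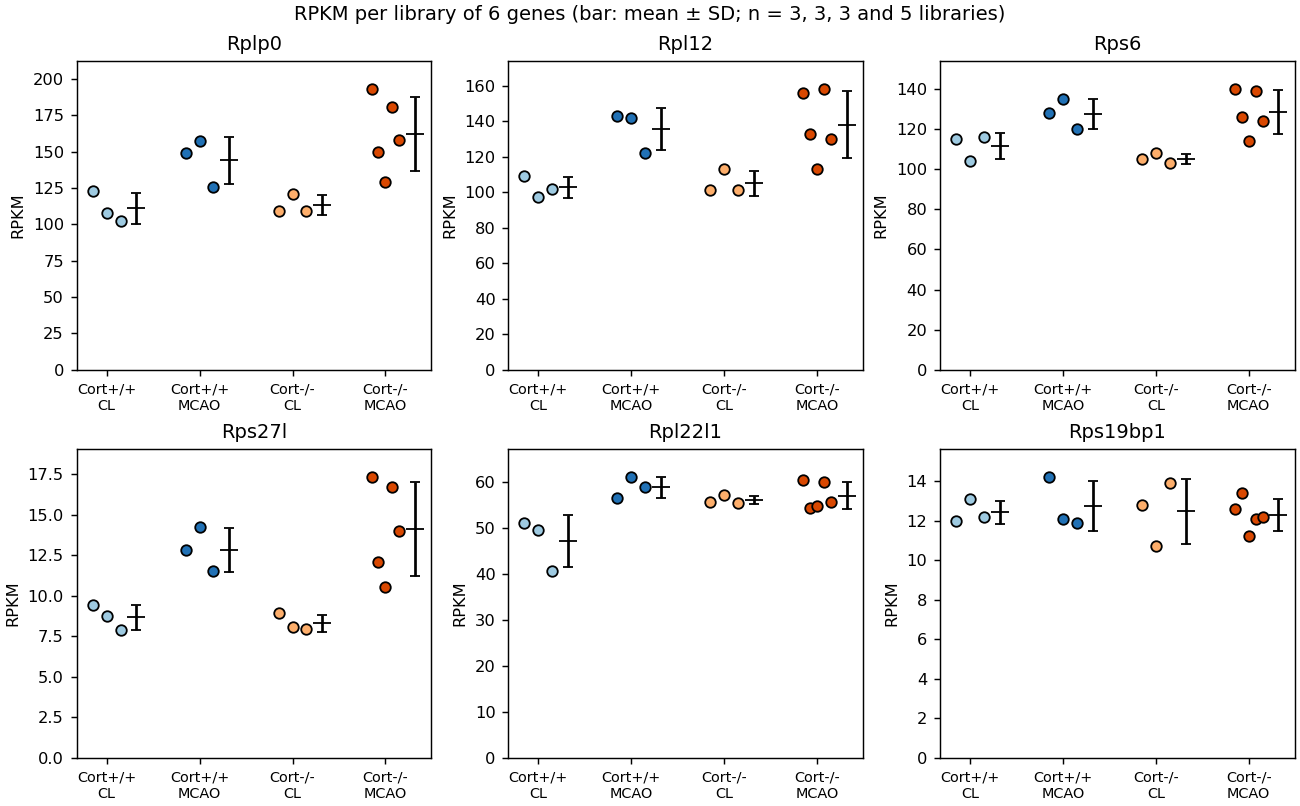
RPKM per library (vertical axes from 0) of Rplp0, Rpl12, Rps6, Rps27l, Rpl22l1 and Rps19bp1 in the 4 groups, with the mean ± SD (n = 3, 3, 3 and 5). Rplp0, Rpl12, Rps6 and Rps27l stand higher in MCAO than in CL libraries of the same genotype, Rpl22l1 is low in Cort+/+ CL only (40.7 to 51.1 RPKM), and Rps19bp1 overlaps in all groups.

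The loss of cortistatin made no difference to these genes that the test could call. In CL hemispheres the median log2 difference between Cort-/- and Cort+/+ mice was 0.00 over the 95 members, 48 higher and 47 lower, but with TPM in place of RPKM 77 were higher and the median was 0.06, where the median of all genes moved to 0.04. No member was called (limma 0 of 95, limma voom 0), beside 0.0152% of all genes. At an unadjusted limma p under 0.05 there were 3 members, Rpl22l1 higher (0.26, standard error 0.08, adjusted p = 1) and the sparse Rpl32l and Rps23rg1 lower, beside 3.91% of all genes in either direction. In MCAO hemispheres the median was 0.04, with 76 higher and 19 lower, but with TPM 87 were higher and the median was 0.10, where that of all genes was 0.04. No member was called (limma 0 of 95, limma voom 0), beside 0.0174% of all genes, and 2 sparse copies (Rpl6l and Rps12l1) were lower at an unadjusted p under 0.05, beside 3.82% of all genes. Leaving out Cort-/- MCAO replicate 3 gave a median of 0.08, and leaving out Cort+/+ MCAO replicate 4 gave −0.02, so its direction rested on single libraries.

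The largest core differences between genotypes in MCAO hemispheres were Rps2 (0.20, 95% interval −0.04 to 0.44), Rplp0 (0.16, −0.09 to 0.42) and Rplp2 (0.13) on the higher side, and Rpl41 (−0.12, −0.47 to 0.22) and Rps15a (−0.07) on the lower side. In CL hemispheres they were Rps21 (0.16, −0.08 to 0.40) and Rpl36 (0.15) on the higher side, and Rpl41 (−0.18, −0.57 to 0.20), Rpl14 and Rpl17 (−0.12 each) on the lower side. Rpl41, the smallest ribosomal protein, was also the most variable core gene in Cort+/+ CL libraries, at 217, 138 and 210 RPKM. For the response to MCAO itself, the interaction had a median of 0.03 over the members, 64 positive and 31 negative, and no member was called (limma 0 of 95, limma voom 0), beside 0.00217% of all genes. At an unadjusted p under 0.05 there were 3, Rpl22l1, Rpl6l and Rps23rg1, beside 3.31% of all genes. For Rplp0 the 95% interval of the interaction was −0.25 to 0.52, and for Rps6 it was −0.14 to 0.31.

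Related gene lists, written with earlier results of these data known, show how far the pattern extended. Of the ribosome proteins outside the symbol rule, Rack1, a scaffold on the small subunit, rose over both genotypes (0.31, standard error 0.07, adjusted p = 0.0254), and Fau, which encodes a fusion of a ubiquitin-like protein with a ribosomal protein, had differences of 0.20 and 0.23 (0.22 over both, adjusted p = 0.127). Of 16 translation factors and other TOP mRNAs, 2 rose in Cort-/- mice, Eef1b2 (0.31, adjusted p = 0.0409) and Tpt1 (0.40, adjusted p = 0.0322), and 4 over both genotypes, which adds Eef1a1 (0.27, adjusted p = 0.031) and Eef1g (0.18, adjusted p = 0.0259). Eef1a1, Eef1b2 and Eef1g are subunits of the elongation machinery, and Tpt1 is a growth-related protein with a TOP mRNA. The medians of this list were 0.09 and 0.18. Of all genes, 1.72% were called in Cort-/- mice and 3.43% over both genotypes.

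Genes for the machinery that builds ribosomes had smaller differences than the core. The median of 49 ribosome biogenesis genes was 0.01 in the wild type and 0.05 in Cort-/- mice, with 0 called in either (3 and 9 higher at an unadjusted p under 0.05) and 2, Polr1d (0.19, adjusted p = 0.0267) and Emg1 (0.19, adjusted p = 0.0496), over both genotypes, beside 3.43% of all genes. The mTORC1 and translation control list of 16 genes had medians of −0.01 and −0.04. Over both genotypes Eif4ebp1, a repressor of cap-dependent translation (0.75, adjusted p = 0.0139), and Myc, a transcription factor that drives ribosome synthesis (0.68, adjusted p = 0.0271), rose, while both S6 kinase genes fell, Rps6kb1 (−0.14, adjusted p just under the threshold) and Rps6kb2 (−0.15, adjusted p = 0.0444). Eif4ebp1 and Myc were at low levels, with means of 1.73 and 2.06 RPKM.

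The 78 mitochondrial ribosomal protein genes, which serve the separate ribosome of mitochondria, had medians of 0.03 and 0.07. Mrps6 rose in Cort-/- mice (0.71, adjusted p = 0.0169), and 4 rose over both genotypes, beside 1.72% and 3.43% of all genes called in these comparisons. The 55 nuclear genes of oxidative phosphorylation, which like ribosomal protein genes are short and highly expressed, had medians of 0.06 and 0.08, with 0 called in either genotype (5 and 9 higher at an unadjusted p under 0.05) and 4 over both. Both lists, and the core, are to be read beside their lengths: among other genes of at least 10 RPKM, the median difference was 0.04 in both genotypes for those under 1000 bases and −0.05 and −0.09 for those of at least 4000 bases, while core genes had a median length of 977 bases (383 to 5395).

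**Figure D5:**
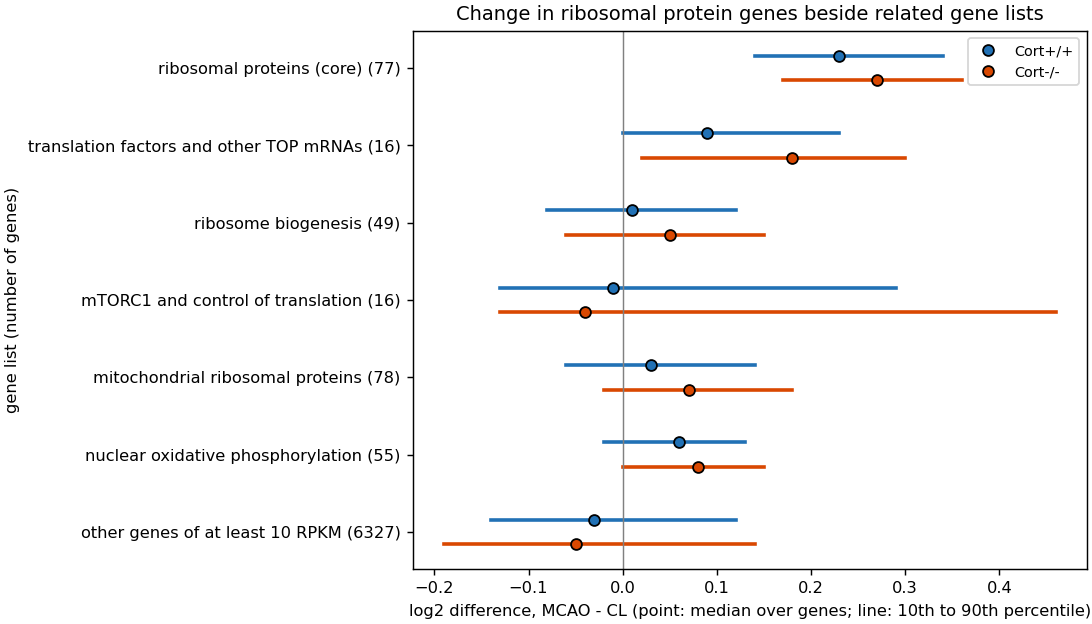
Median (point) and 10th to 90th percentile (line) of the log2 difference between MCAO and CL hemispheres in Cort+/+ and Cort-/- mice, for the core genes and 6 other gene sets, with the number of genes in brackets. The medians of the core (0.23 and 0.27) lie furthest to the right, and ribosome biogenesis (0.01 and 0.05) lies near the other genes of at least 10 RPKM (−0.03 and −0.05).

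The 5 genes outside the rule whose profile over the 14 libraries was most like the members' median, among 6327 genes of at least 10 RPKM, were Gm54878, Eef1a1 and Ctsa (Pearson r = 0.98 each), and Eef1b2 and Kxd1 (r = 0.97 each). These values describe a likeness in libraries that share a scaling.

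Markers of other cells moved with the same libraries. The summed RPKM of 15 microglia and macrophage markers was 269 to 359 in Cort+/+ CL, 402 to 765 in Cort+/+ MCAO, 282 to 351 in Cort-/- CL and 484 to 913 in Cort-/- MCAO libraries. All 15 were higher in MCAO in each genotype (medians 1.01 and 1.17), and 0 were called in Cort+/+ mice (14 at an unadjusted p under 0.05) and 13 in Cort-/- mice. Within the MCAO groups the libraries with the lowest ribosomal share, Cort+/+ replicate 4 and Cort-/- replicate 3, also had the lowest microglial sums (402 and 484 RPKM) and the fewest reads (31211428 and 25993810). Cort-/- MCAO replicates 1 and 4 had the highest share (3.75% and 3.67%) and the highest sums of that group. The 10 markers of proliferating cells summed to 1.42 to 3.16 RPKM in CL and 5.73 to 17.5 RPKM in MCAO libraries, and 2 and 10 of them were called.

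Of the 15 neuronal markers, 12 were lower in Cort+/+ and 14 in Cort-/- MCAO hemispheres (medians −0.14 and −0.13), with 0 and 2 called, the latter Drd1 and Ppp1r1b of striatal neurons. Their sums were 2787 to 3318 RPKM in CL and 2420 to 2888 RPKM in MCAO libraries. Astrocyte markers had medians of 0.05 and −0.01 (0 and 2 of 10 called, Gfap and Aqp4), oligodendrocyte markers −0.07 and 0.05 (0 of 10 called in each, 2 and 2 at an unadjusted p under 0.05) and endothelial markers 0.10 and 0.46 (0 and 2 of 10 called, Cdh5 and Kdr). Markers of neutrophils and lymphocytes had medians of 0.06 and 0.08 (0 of 12 called in each, 0 and 1 at an unadjusted p under 0.05), those of choroid plexus 0.06 and 0.17 (0 of 6 called, and 0 at an unadjusted p under 0.05), and those of erythroid cells −0.52 and 0.05 (0 of 5 called, and 0 at an unadjusted p under 0.05). No marker was at 0 in every library. Their part in the ribosomal protein result was not tested.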

How the data were processed

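RNA-seq (stranded, poly(A) selected, 100 bp paired-end reads) was made from CL and MCAO hemispheres. The authors ran reanalyzerGSE v3.0.0 on GRCm39 with GENCODE M28 and deposited RPKM values per gene and library, without pooling. Per its methods, the study kept replicates that grouped clearly where variability was large, so the spread between libraries may be understated. The aligner, gene lengths and scaling are not given in the sources used here. The study's count test cannot be run on RPKM as a main result, so limma (one model of 4 groups, with a mean-variance trend) was fitted to log2(RPKM + 0.1).

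Whole reads were recovered by finding the gene lengths and library sizes that turn each value into a whole number (99.997% of 495656 values, within 0.001 reads). They give depth, lengths and a limma voom alternative. P-values set a difference of group means against the spread between libraries. Depth limits genes under about 1 RPKM.

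Genes were named by a rule on calls, extreme differences, levels, copies with their parents, list genes with calls, and likeness. The members, gene lists and roles were chosen with earlier results of these data known. Other pseudocounts, filters, scalings, sample sets, library weights, replicate blocks and 14 fits with 1 library left out were run as alternatives. Limma was tested on simulated data. Positions come from GENCODE M39. Tools were R 4.3.3, limma 3.58.1, Python 3.11.15, numpy 2.4.6, pandas 2.3.3 and matplotlib 3.10.9. Some genes are not reported here.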

Additional observations from a re-analysis of the deposited data

Results flagged for a closer look

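In 3 of the 55 sets of 5 Cort-/- MCAO libraries examined, the share of TPM and each named gene, 1 library stood apart from the other 4 by Dixon's criterion for 5 values (0.71), and chance alone does so in about 1 set in 20. Rpl32l was highest in replicate 1 (0.461 RPKM), Rpl39l was highest in replicate 1 (0.359 RPKM), and Rps4l was lowest in replicate 3 (8.57 RPKM). The first 2 rest on at most 13 reads a library. The Rps4l value is that of the library with the fewest reads and the lowest ribosomal protein share of its group.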

How the results depend on the processing

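The median log2 difference of the members moved by less than the spread between libraries under every alternative, in all 6 comparisons. It ranged from 0.17 to 0.29 in Cort+/+ and from 0.23 to 0.32 in Cort-/- mice when 1 library was left out. The count of called members was less stable. In Cort+/+ mice, and between genotypes, it was 0 throughout. In Cort-/- mice (4) it was 1 with a pseudocount of 1, 17 with genes of at least 0.5 RPKM and 0 with only the groups compared. It was 10 with library weights, 26 with limma voom, 31 with limma voom on genes of at least 0.5 RPKM, and 0 to 29 with 1 library left out. In the same order 543, 1290, 86, 1058, 1267, 1367 and 130 to 1180 of all genes were called, beside 792 in the main fit. Over both genotypes (37) it was 61 with genes of at least 0.5 RPKM, 59 and 63 with the voom fits, and 8 to 56 with 1 library left out. In the same order 2180, 2114, 2316 and 929 to 1904 of all genes were called, beside 1579 in the main fit. The filter tests 17476 in place of 46102 genes. The cause of the other moves was not tested. Without mitochondrially encoded genes in the total, the shares were 3.08%, 3.61%, 3.11% and 3.75% in Cort+/+ CL and MCAO and Cort-/- CL and MCAO.

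With the replicate number as a block, no member was called in Cort-/- mice or over both genotypes (0 and 0). Of all 46102 genes, 0 and 238 were called in that fit, against 792 and 1579 in the main fit. With a block of genotype and number, 0 members and 0 of all genes were called. The counts of 0 in Cort-/- mice are therefore not particular to the members. The numbers were not shown to pair libraries: same-numbered libraries correlated at 0.316 and −0.141 in Cort+/+ and at −0.0645, −0.239 and 0.0271 in Cort-/- mice.

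The differences of some copies, Rps19bp1 and Rpl29, none of them called, changed sign. Between hemispheres in Cort-/- mice Rps19bp1 went from −0.01 to 0.02 (TPM), 0.01 (quantile normalization, and replicate block by number) and 0.00 (voom on genes of at least 0.5 RPKM), and from −0.12 to 0.07 with 1 library left out. Rps4l went from −0.01 to 0.02 (TPM, library weights, voom on genes of at least 0.5 RPKM), 0.00 (median ratios) and 0.01 (quantile normalization, voom), and from −0.09 to 0.09 with 1 library left out. In Cort+/+ mice Rpl37rt went to −0.02 with quantile normalization. With 1 library left out there, Rpl37rt ranged from −0.10 to 0.34, Rpl29 from −0.00 to 0.16, Rps19bp1 from −0.05 to 0.08 and Rps4l from −0.03 to 0.13. Between genotypes Rps19bp1 went to 0.01 in MCAO hemispheres (TPM). With 1 library left out, Rpl35rt ranged from −0.01 to 0.67 in CL and from −0.23 to 0.00 in MCAO hemispheres, and in MCAO hemispheres Rps19bp1 ranged from −0.10 to 0.03 and Rps27rt from −0.44 to 0.08. Of the other values of named genes, 57 in Cort-/- mice and 67 over both genotypes lost a call and 10 in Cort-/- mice gained one.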
